A study of Homo sapiens with 8 samples.

Results

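The addition of paclitaxel to the BET bromodomain inhibitor JQ1 was described by setting the single-cell RNA library of SUM159 cells selected in both drugs (JQ1+paclitaxel, 643 cells) beside that of cells selected in JQ1 alone in the same experiment (JQ1-A, 697 cells). The 1340 cells were chosen by the library recorded for each cell in the deposited metadata, out of 5738 cells in 8 libraries. SUM159 is an established human triple-negative breast cancer line, and its cells carried ClonTracer, a lentiviral library of DNA barcodes that marks each founder cell. Cultures were kept for up to 18 passages in DMSO vehicle, in 0.6 nM paclitaxel, in 100 nM JQ1 or in 100 nM JQ1 with 0.6 nM paclitaxel, so that JQ1 was present on both sides of the comparison and paclitaxel on 1 side only. JQ1-B was a further library of cells in 100 nM JQ1, from the experiment that also held palbociclib (160 nM) and JQ1 with palbociclib, and the remaining library was taken before treatment. Equal numbers of cells of the triplicate cultures of a treatment were combined into 1 library, so cultures could not be told apart, each side of the comparison had 1 library, and no difference below has a replicate check. Intervals in brackets are exact 95% intervals that cover counting error only.

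JQ1 displaces BET bromodomain proteins from acetylated histones and so lowers transcription of genes that depend on them, MYC among them in many cancers, while HEXIM1 is a gene that BET inhibitors commonly induce. Paclitaxel binds the beta subunit of tubulin, stabilises microtubules and disturbs the mitotic spindle. Cells kept in paclitaxel can export it through the pump encoded by ABCB1, alter their tubulins or tolerate faulty mitosis, and cells kept in a BET inhibitor can restore the transcription of growth genes by other routes. The comparison asked how the transcriptome of cells already selected in JQ1 differed when paclitaxel had been present as well.

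The JQ1+paclitaxel library held 14341832 UMIs (unique molecular identifiers, each standing for 1 captured transcript) and JQ1-A 16181822. Median UMIs per cell were 20793 and 21529, median detected genes 3536 and 3662, and the median mitochondrial share 4.69% and 5.35%. The 2 libraries shared 2 cell barcodes. Defining transcripts of the line were as its label says in both libraries. VIM, the mesenchymal intermediate filament, stood at 4502 and 4096 CPM (the UMIs of a gene scaled to a common library total), CD44 at 271 and 315 CPM, ERBB2 at 10.7 and 10.1 CPM, ESR1 had 0 and 2 UMIs in all, PGR 2 and 0, and the epithelial EPCAM 1 and 3. Of 12 markers of blood, endothelial, fibroblast and liver cells, 6 had a row in the table. Their summed level was 12.6 CPM in JQ1+paclitaxel and 21.2 in JQ1-A, most of it PDGFRA, a receptor that mesenchymal tumour lines also transcribe, while PTPRC had 1 and 0 UMIs and CD3D none in either library.

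Most of the transcriptome was closely matched between the libraries. Of 6292 genes whose level averaged 10 CPM or more over the pair, hereafter the measured genes, 46 (0.731%) were at least 1.5-fold higher with paclitaxel and 71 (1.13%) were at least 1.5-fold lower, 117 (1.86%) in all. Only 11 were past 2-fold upwards and 10 downwards. When instead each cell's share of UMIs was averaged over cells, so that deep cells weighed no more than others, 45 genes were higher and 114 lower, and the higher genes made up 28.3% of those past the fold instead of 39.3%. JQ1-B against JQ1-A, which compares 2 libraries of the same drug and dose from different experiments, put 21 genes (0.334%) past the fold upwards and 56 (0.89%) downwards, 77 (1.22%) in all. JQ1+paclitaxel set against JQ1-B gave 64 genes (1.02%) and 82 (1.3%), 146 (2.32%) in all. These comparisons share libraries and so are not independent of each other. Past the fold in the same direction from both JQ1 libraries were 20 genes upwards (0.318%) and 36 downwards (0.572%), 56 (0.89%) in all. The typical size of a difference was also close to that between the libraries of 1 treatment, as the median absolute log2 ratio, centred on its median, was 0.13 for JQ1+paclitaxel against JQ1-A and 0.12 for JQ1-B against JQ1-A.

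**Figure D1:**
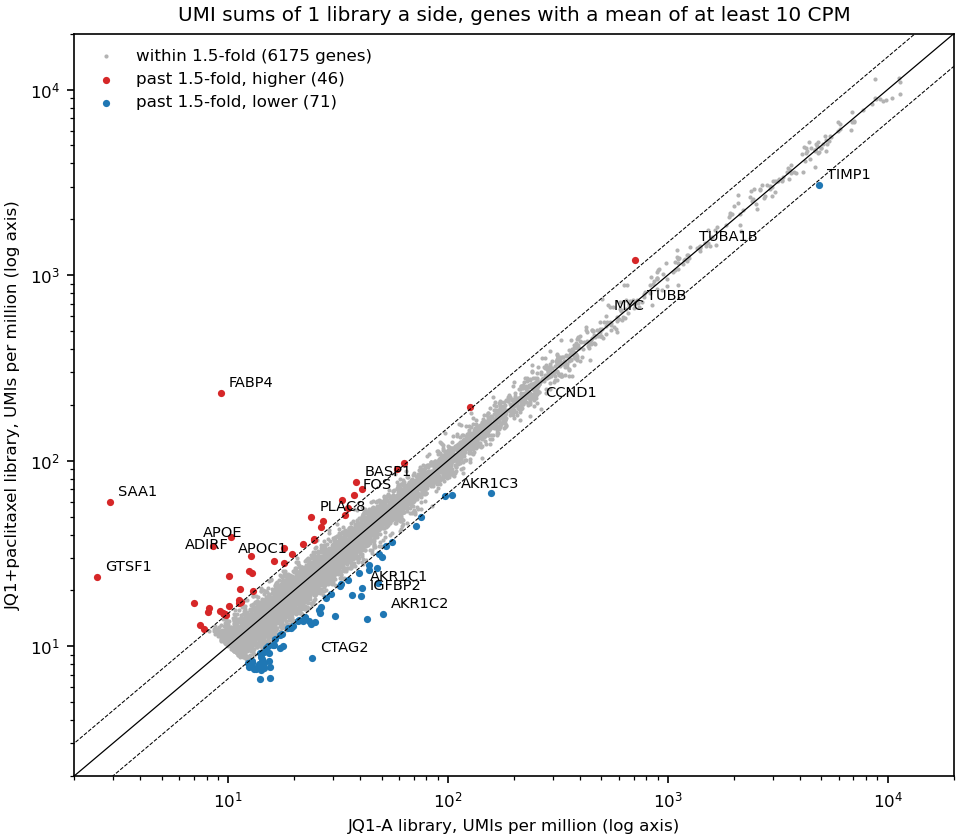
Each point is 1 of 6292 genes, with its CPM in JQ1-A on the horizontal axis and in JQ1+paclitaxel on the vertical axis, both on log scales, and dashed lines at 1.5-fold. The 46 genes past the fold upwards (red) include FABP4, SAA1, GTSF1, APOE and APOC1 far above the band, and the 71 downwards (blue) include AKR1C2, CTAG2 and the abundant TIMP1.

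FABP4, APOE, APOC1 and MGLL, genes of lipid transport and lipid breakdown, were among the 15 highest ratios. FABP4, the cytoplasmic fatty acid carrier of adipocytes and macrophages, was at 231 CPM with paclitaxel, 9.27 in JQ1-A, 8.92 in JQ1-B, 2.17 in DMSO and 1.87 in paclitaxel alone. It was 24.9-fold (21.2–29.6) above JQ1-A and 25.9-fold above JQ1-B, and the highest value in the other libraries was 27.7 CPM, in JQ1+palbociclib. APOE, the apolipoprotein through which lipoproteins bind their receptors, was at 34.8 CPM against 8.59 in JQ1-A and 4.58 in JQ1-B (ratios 4.05 and 7.60). Its neighbour APOC1, which lies 4853 bases downstream on chromosome 19 (chr19:45417504-45422606, GRCh37) and encodes a small apolipoprotein, was at 39.0 CPM against 10.4 and 8.28, 3.75-fold (3.15–4.49) above JQ1-A. JQ1+paclitaxel was the highest of the 8 libraries for all 3 of these genes.

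MGLL, the lipase that splits monoacylglycerols into glycerol and fatty acid, was at 25.6 CPM against 12.4, 2.06-fold (1.73–2.46). Its level with paclitaxel was inside the 22.3 to 28.7 CPM of the libraries without JQ1, and JQ1-A was the lowest of the 8 libraries. Against JQ1-B, at 17.6 CPM, the ratio was 1.45, and among cells called G1 the ratio to JQ1-A was 1.49, so MGLL was past the fold from JQ1-A over all cells but not in these. Of 20 measured genes on the list of lipid carriers and lipid handling, these 4 were past the fold upwards and none downwards, where 0.731% and 1.13% of all measured genes were. The list was drawn up with the FABP4 and APOE values known, so its count is no independent evidence. The other 16 members lay within the fold and their direction was mixed. The fatty acid carrier FABP5 was at 357 and 268 CPM, the fatty acid synthase FASN at 81.9 and 80.8 CPM, the desaturase SCD at 153 and 173 CPM, and PPARG, the nuclear receptor that drives FABP4 in fat cells, at 14.4 and 13.5 CPM. The median log2 ratio of the list was 0.07 and that of all measured genes -0.02. The direction of the list median turned to -0.04 against JQ1-B and to -0.13 over members with at least 50 CPM. Below the minimum, and named after its value was seen, the lipoprotein lipase LPL had 66 UMIs with paclitaxel and 11 in JQ1-A (ratio 6.77, 3.55–14.2).

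SAA1, the acute-phase apolipoprotein serum amyloid A, was at 59.8 CPM with paclitaxel against 2.90 in JQ1-A and 3.74 in JQ1-B, ratios of 20.6 (15.3–28.2) and 15.96. Its level with paclitaxel was not outside the range of the series. Cells before treatment had 65.4 CPM, DMSO 26.5, paclitaxel alone 19.0 and palbociclib 257, so that the JQ1-treated libraries without paclitaxel (JQ1-A, JQ1-B and JQ1+palbociclib at 5.94 CPM) were the low ones. Among cells called G1 the ratio was 10.9. SAA1 shares 38.6% of the last 500 bases of its transcript with SAA2 in stretches of 50 bases, and because 3' reads fall there the division of reads between them is uncertain. SAA2 itself had 72 UMIs with paclitaxel and 3 in JQ1-A. Of the 4 measured genes of the acute-phase and complement list, SAA1 alone was past the fold. Over all measured genes 1.86% were, so 4 genes are too few to describe the list. The complement shield CD55 was at 13.6 and 19.96 CPM, its relatives CD59 (300.2 and 286 CPM) and CD46 (19.9 and 21.8 CPM) were near parity, and C3, below the minimum, had 103 and 55 UMIs.

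GTSF1, a germline protein that works with piRNAs to silence transposons, was at 23.6 CPM with paclitaxel and 2.53 in JQ1-A, 9.30-fold (6.71–13.2). JQ1-B stood between them at 7.49 CPM, a ratio of 3.15, and the other libraries reached 9.85 CPM at most. Other germline genes mostly did not share its direction. Of 11 measured cancer-testis antigens, genes normally silent outside the testis, GTSF1 was the 1 past the fold upwards and CTAG2 the 1 past it downwards. Over all measured genes 0.731% and 1.13% were. Of the 11, 8 were below parity, with a median log2 ratio of -0.43, which was -0.15 against JQ1-B. CTAG2 was at 8.65 CPM against 24.2 in JQ1-A and 15.9 in JQ1-B, the lowest of the 8 libraries (DMSO 31.0, paclitaxel 30.9 CPM). It shares 40.6% of its transcript end with CTAG1A and CTAG1B, so its reads are not certain to be its own. MAGEA3 was at 29.5 and 38.9 CPM, MAGEA12 at 36.5 and 49.3, CSAG1 at 103 and 143, and SPANXD at 190 and 267. Below the minimum, and named after their values were seen, PAGE1 had 2 UMIs with paclitaxel and 88 in JQ1-A, a ratio of 0.0256 (0.00306–0.0954), and PAGE2B had 4 and 50. In JQ1-B these were at 0.542 and 0.887 CPM, against 5.44 and 3.09 in JQ1-A, so JQ1-B was low as well.

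The other genes among the 15 highest ratios had no shared function. ADIRF, a nuclear factor that promotes adipocyte differentiation, was at 30.7 CPM with paclitaxel, 12.8 in JQ1-A and 11.2 in JQ1-B, and at 0.847 in DMSO and 1.10 in paclitaxel alone, so that, as for FABP4, DMSO and paclitaxel alone were far below the JQ1 libraries. Palbociclib alone was at 5.56 CPM for ADIRF and at 12.1 for FABP4, the latter above JQ1-A. It shares 27.9% of its transcript end with another annotated gene. PLAC8, a small cysteine-rich protein, was at 49.5 CPM against 23.9 and 23.4 (2.08-fold, 1.83–2.36), below the 55.5 CPM of DMSO. BASP1, a membrane-bound signalling protein abundant in growing axons, was at 76.8 CPM against 38.3 and 44.8 (2.01-fold, 1.82–2.22), again below DMSO at 92.4. The level with paclitaxel was thus nearer to that of cells that had no JQ1 for PLAC8 and BASP1, as it was for MGLL above.

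HES7, a repressor of the somite segmentation clock, was at 23.8 CPM against 10.1 in JQ1-A and 14.97 in JQ1-B. The libraries without JQ1 were at 18.6 to 38.9 CPM, and JQ1-A was the lowest of the 8. The long noncoding RNA SNHG18 was at 17.01 CPM against 7.05 and 5.52, and the DNA translocase HLTF, which acts at stalled replication forks, at 15.3 against 8.16 and 8.42. Both also lay inside the range of the libraries without JQ1, 4.35 to 21.7 CPM for SNHG18 and 8.91 to 15.7 for HLTF. Surface proteins completed the group. IL13RA2, a decoy receptor for interleukin-13, was at 16.04 CPM against 8.22 and 9.85, well below the 62.6 CPM in palbociclib. ALCAM, an adhesion protein, was at 24.8 CPM against 12.9 and 18.3, and CD33, a sialic-acid-binding lectin best known from myeloid cells, at 33.8 against 18.0 and 22.9. Both were highest of the 8 libraries but within 1.5-fold of JQ1-B. In all, 12 of the 15 genes were past the fold upwards from JQ1-B as well, as were 1.02% of all measured genes. The exceptions were MGLL, ALCAM and CD33. JQ1+paclitaxel was the highest of the 8 libraries for 7 of the 15, as it was for 225 (3.58%) of all measured genes. The 15 were picked by a high ratio of JQ1+paclitaxel to JQ1-A, so both counts follow partly from that choice and are no separate evidence.

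**Figure D2:**
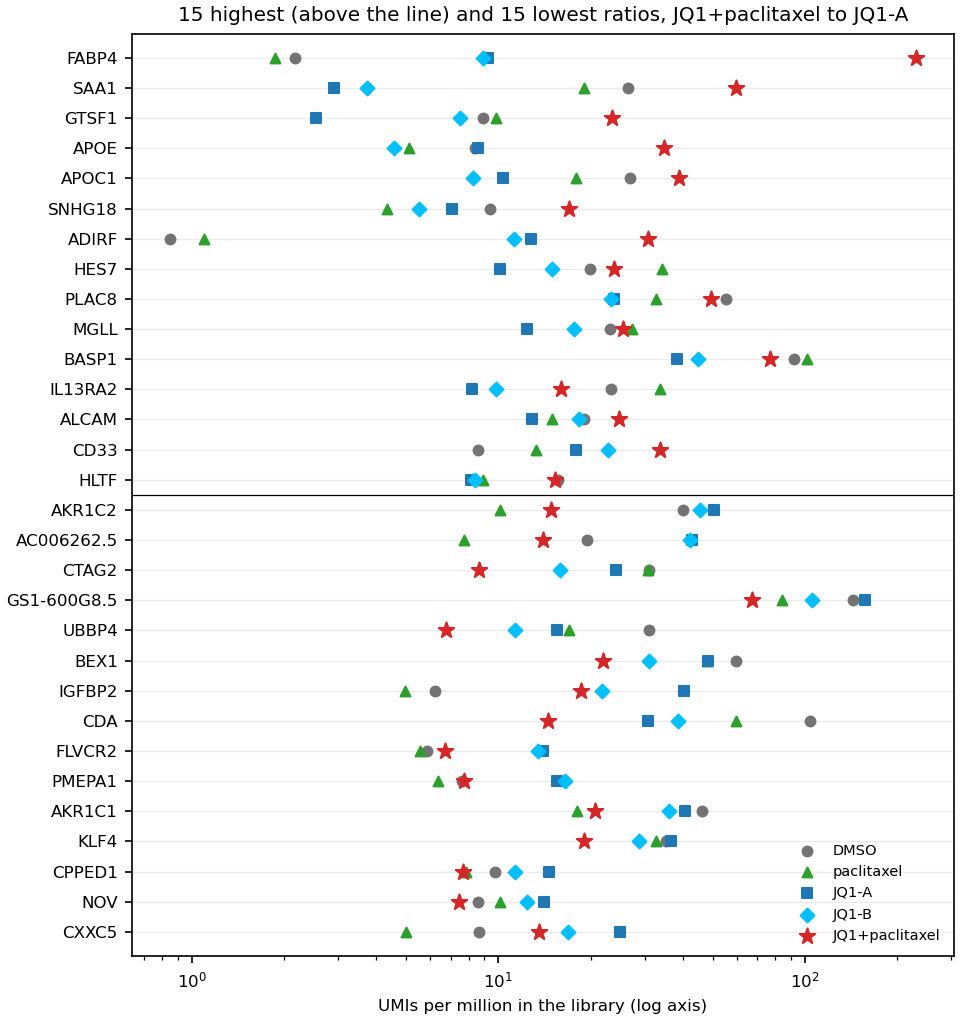
Levels in CPM (log axis) of the 15 genes with the highest ratio of JQ1+paclitaxel to JQ1-A, above the line, and the 15 with the lowest, below it, in the DMSO, paclitaxel, JQ1-A, JQ1-B and JQ1+paclitaxel libraries. FABP4 and ADIRF are far lower in DMSO and paclitaxel alone than in any JQ1 library, while AKR1C2 and AKR1C1 are low in both libraries that had paclitaxel.

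Among the lowest ratios, aldo-keto reductases of the AKR1C family formed the clearest group. These enzymes reduce steroids, prostaglandins and reactive carbonyls, lie side by side on chromosome 10 and include targets of the oxidative stress factor NRF2. AKR1C2 (chr10:5029967-5060223, GRCh37, minus strand) was at 14.9 CPM with paclitaxel, 50.5 in JQ1-A and 45.4 in JQ1-B. AKR1C1 (chr10:5005445-5025475, plus strand) was at 20.7, 40.7 and 36.2 CPM, a ratio to JQ1-A of 0.508 (0.442–0.584). AKR1C3 (chr10:5077546-5149878, plus strand) was at 65.5, 105 and 96.9 CPM, a ratio of 0.625 (0.576–0.677), which was 0.722 among cells called G1. All 3 were lower with paclitaxel than in either JQ1 library, although AKR1C3 was within 1.5-fold of JQ1-B (ratio 0.676). Without JQ1 the order was the same, as DMSO and paclitaxel alone were at 39.9 and 10.1 CPM for AKR1C2, 46.2 and 18.1 for AKR1C1, and 112 and 37.7 for AKR1C3. AKR1C2 shares 53.2% of its transcript end with AKR1C1 transcripts, and AKR1C3 shares 27.1% with its relatives. The reads of AKR1C2 and AKR1C3 are thus not certain to be their own. The transcript end searched for AKR1C1 itself held no shared stretch (0.0%).

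The bases just upstream of these neighbouring genes are shown because the genes were low together and their sequences there are related. The promoters are from RefSeq (GRCh38.p14), 250 bases ending at the base before an annotated start, 5′ to 3′ on the strand of the gene, and capitals mark the letters CCAAT found on either strand, here in each case as ATTGG:
AKR1C1 promoter, chr10:4963165-4963414, plus strand: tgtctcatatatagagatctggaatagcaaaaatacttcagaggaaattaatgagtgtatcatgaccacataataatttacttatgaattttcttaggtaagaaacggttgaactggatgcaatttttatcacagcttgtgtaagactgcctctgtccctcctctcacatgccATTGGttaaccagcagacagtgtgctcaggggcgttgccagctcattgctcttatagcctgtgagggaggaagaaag
AKR1C2 promoter, chr10:5003858-5004107, minus strand: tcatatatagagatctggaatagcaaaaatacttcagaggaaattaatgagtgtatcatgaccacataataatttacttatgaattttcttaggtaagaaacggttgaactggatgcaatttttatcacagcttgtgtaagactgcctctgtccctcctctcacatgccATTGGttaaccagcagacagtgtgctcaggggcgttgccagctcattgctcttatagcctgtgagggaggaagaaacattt
AKR1C3 first promoter, chr10:5048531-5048780, plus strand: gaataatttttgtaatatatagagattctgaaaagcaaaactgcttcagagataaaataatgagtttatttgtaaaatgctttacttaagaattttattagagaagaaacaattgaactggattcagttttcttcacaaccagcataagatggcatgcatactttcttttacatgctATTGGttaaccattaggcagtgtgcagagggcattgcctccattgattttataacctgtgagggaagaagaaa
AKR1C3 second promoter, chr10:5094164-5094413, plus strand: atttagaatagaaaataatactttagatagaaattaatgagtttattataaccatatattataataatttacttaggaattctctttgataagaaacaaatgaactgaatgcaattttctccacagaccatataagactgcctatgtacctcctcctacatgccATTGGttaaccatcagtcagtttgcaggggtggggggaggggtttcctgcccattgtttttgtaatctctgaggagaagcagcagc
AKR1C1 and AKR1C2 were identical at 245 of 246 aligned bases (99.6%), and every other pair at 78.3% to 80.7%. The marked letters began 77, 81, 73 and 86 bases before the start. CCAAT on either strand is common, being held by 32% of 35116 RefSeq promoters of the same length. The core letters of the antioxidant response element, TGACNNNGC, were searched on both strands and were in none of these 4 windows, and 10.9% of all promoters held them. Most windows of this length thus hold none, and bases further upstream were not searched, so their absence here does not bear on NRF2 control.

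The AKR1C genes did not stand for the whole list of NRF2 targets to which they belong. Of 23 measured members 4 were past the fold downwards and none upwards, namely the 3 AKR1C genes and SLC7A11, the cystine importer that feeds glutathione synthesis, at 16.2 CPM against 26.5 in JQ1-A and 33.0 in JQ1-B. The share of lower genes over all measured genes was 1.13%, and the list was chosen with the AKR1C2 value known. Classical NRF2 targets were near parity. The quinone reductase NQO1 was at 540 and 552 CPM, the glutathione synthesis subunit GCLM at 43.3 and 45.1, haem oxygenase HMOX1 at 106 and 119, and thioredoxin reductase TXNRD1 at 267 and 252. The median log2 ratio of the list was -0.03.

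The remaining low genes were diverse. BEX1, an X-linked adaptor of neurotrophin signalling, was at 22.03 CPM with paclitaxel, 48.2 in JQ1-A and 31.1 in JQ1-B. CDA, cytidine deaminase, which degrades cytidine and its drug analogues, was at 14.6 CPM against 30.8 and 38.5 and against 104 in DMSO and 59.8 in paclitaxel alone. KLF4, a transcription factor of stem and epithelial cells, was at 19.0 CPM against 36.5 and 28.8. In each of these JQ1+paclitaxel lay below both JQ1 libraries.

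PMEPA1, a feedback inhibitor of TGF-beta signalling, was at 7.74 CPM against 15.6 in JQ1-A and 16.4 in JQ1-B, and the membrane transporter FLVCR2 at 6.69 against 13.97 and 13.5. Both were near their DMSO levels of 7.63 and 5.84 CPM. NOV, a matricellular protein of the CCN family, was at 7.46 CPM against 14.1 and 12.4. The phosphatase CPPED1 was at 7.67 against 14.6 and 11.3, and the ubiquitin pseudogene UBBP4, which shares 24.6% of its transcript end with UBB, at 6.76 against 15.5 and 11.4. AC006262.5 was at 14.01 CPM against 42.9 and 42.3, and GS1-600G8.5 at 67.0 against 157 and 106.

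For IGFBP2, which binds insulin-like growth factors, and for CXXC5, a zinc-finger regulator of Wnt signalling, the low ratio depended on which JQ1 library was the reference. IGFBP2 was at 18.5 CPM with paclitaxel, 40.2 in JQ1-A and 21.9 in JQ1-B, a ratio to JQ1-B of 0.848. CXXC5 was at 13.5, 24.9 and 16.9 CPM, a ratio to JQ1-B of 0.801. Of the 15 lowest genes, 11 were past the fold downwards from JQ1-B too, as were 1.3% of all measured genes. BEX1 (0.708) and CPPED1 (0.677) were the others within it. JQ1+paclitaxel was the lowest of the 8 libraries for 5 of the 15, but it was so for 1165 (18.5%) of all measured genes. The 15 were picked by a low ratio of JQ1+paclitaxel to JQ1-A, so both counts follow partly from that choice.

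Further members of the pathway lists were past the fold singly or in pairs. Over all measured genes 1.86% were past it, so such counts, here and in the next paragraphs, are not read as results about the lists. FOS, an immediate early transcription factor, was at 65.1 CPM with paclitaxel, 37.4 in JQ1-A and 24.9 in JQ1-B (ratios 1.74 and 2.61). Its partner JUN was at 34.1 and 25.2 CPM, JUNB at 140 and 138 and the induced factor EGR1 at 193 and 195. Of 21 measured immediate early genes FOS was the 1 higher and KLF4 the 1 lower. IFITM2, an interferon-induced membrane protein whose transcript end is 25.5% shared, was at 47.5 CPM against 27.0 and 21.0 and was the 1 of 11 measured interferon-stimulated genes past the fold. DDIT3, the stress-induced factor CHOP, was at 15.4 CPM against 9.21 and 8.72 and was the 1 of 21 measured genes of the ATF4 and unfolded protein response. In the mean over cells its ratio was 1.41, within the fold. HSPA1A, the inducible heat shock chaperone, was at 8.72 CPM against 14.1 and 12.9, the 1 of 11 heat shock genes past the fold.

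Of 17 measured matrix proteases and their inhibitors TIMP1 and PLAT were past the fold, both lower with paclitaxel. TIMP1, an abundant inhibitor of matrix metalloproteinases, was at 3059 CPM with paclitaxel, 4861 in JQ1-A and 5289 in JQ1-B (ratios 0.629 and 0.578), close to the 3060 CPM of cells before treatment and far below DMSO (6640) and paclitaxel alone (7147). PLAT, tissue plasminogen activator, was at 64.2 CPM against 96.7 and 100.5, a ratio to JQ1-A of 0.664 that lies at the edge of the fold and was within it under 7 of 9 other ways of choosing or scaling the cells. VCAN, the matrix proteoglycan versican, was at 12.5 CPM against 19.3 and 19.3. It was the 1 of 22 measured matrix and adhesion genes past the fold, 18 of the 22 were below parity, and their median log2 ratio was -0.21. Against JQ1-B it was -0.002, with -0.12 for JQ1-B against JQ1-A, so the low median of this list depended on the reference library.

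TEAD4, a DNA-binding partner of YAP, was at 16.5 CPM against 10.1 and 12.4, and CRIM1, a membrane protein that binds BMPs, at 37.7 against 24.7 and 28.5. They were the 2 of 15 YAP and TAZ genes past the fold, and both were within it against JQ1-B. Among cells called G1 the ratio of TEAD4 to JQ1-A was 1.11. CNN3, an actin-binding calponin, was at 55.9 CPM against 35.0 and 43.99, S100A3, a calcium-binding protein, at 13.6 against 20.9 and 21.2, and PDGFRA at 9.83 against 17.2 and 13.9. They were the only members past the fold of the mesenchymal list (12 measured), the S100 family (8 measured) and the list of other cell types (1 measured), and CNN3, PDGFRA and HSPA1A were within the fold against JQ1-B. Among cells called G1 the ratios of TIMP1 (0.682), VCAN (0.708), S100A3 (0.693), CNN3 (1.48) and CRIM1 (1.39) were within the fold as well.

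Genes of the BET family and of tubulin were near parity. BRD2, a BET protein, was at 99.0 CPM with paclitaxel and 91.8 in JQ1-A (ratio 1.08, 1.002–1.16) and BRD3, another BET protein, at 20.5 and 18.8 (1.09). HEXIM1 was at 31.7 and 30.1 CPM, against 16.1 in DMSO, so its level was about the same in both libraries and above that of vehicle. MYC was at 604 CPM against 522 in JQ1-A, a ratio of 1.16 (1.12–1.19), and against 401 in JQ1-B, a ratio of 1.51 that is just past the fold, while DMSO was at 356. No BET or P-TEFb gene of 11 measured was past the fold, nor was any of 15 measured tubulins and tubulin-folding factors. Over all measured genes 1.86% were past it, so lists this short would mostly have none. TUBB, the main beta-tubulin, was at 677 and 741 CPM, TUBA1B at 1415 and 1266 (with 49.9% of its transcript end shared with other genes), TUBB4B at 443 and 398 and TUBB6 at 115 and 103, and the list median was a log2 ratio of 0.07. None of 19 measured microtubule-binding proteins was past the fold either, and TUBB3 was not analysed here.

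ABCB1, the efflux pump that exports paclitaxel, was rare. It had 27 UMIs with paclitaxel and 5 in JQ1-A, that is 1.88 and 0.309 CPM, a ratio of 6.09 (2.31–20.3). JQ1-B had 5 UMIs (0.246 CPM), DMSO 4 (0.377 CPM) and paclitaxel alone 13 (0.715 CPM), so JQ1+paclitaxel was the highest of the 8 libraries, at a level far under the minimum for the measured genes. ABCC3, a related transporter of conjugated organic anions, was at 77.7 and 88.4 CPM, and the vault protein MVP at 29.98 and 29.7. Of the 18 genes on the efflux and metabolism list 3 were measured and none was past the fold, too few to describe the list.

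Of 33 lists 18 had no member past the fold, among them mitotic kinesins and checkpoint genes (30 measured, median log2 ratio -0.06), cyclins and CDK inhibitors (11, -0.12), the BCL2 family (9, -0.06), cytokines and NF-kB genes (16, -0.10), cholesterol synthesis (18, -0.18), MHC class I presentation (11, 0.02), hypoxia and glycolysis (16, 0.01) and the nuclear subunits of oxidative phosphorylation (41, 0.09). Against JQ1-B the medians of the mitotic genes (0.10), the cytokines (0.54), hypoxia and glycolysis (-0.17) and the tubulins (-0.03) had the opposite sign. Over all measured genes 1.86% were past the fold, so lists of these sizes would often have no member past it. Single values in these lists were small differences. CCND1, encoding cyclin D1, was at 204 and 253 CPM (ratio 0.806, 0.769–0.846), the CDK inhibitor CDKN1A at 43.5 and 51.2, the survival genes BCL2L1 at 54.9 and 61.9 and MCL1 at 143 and 152, and the proliferation marker MKI67 at 84.4 and 89.8. The highest list median was that of 3 measured metallothioneins, metal-binding proteins, at 0.44, with MT1X at 885 and 631 CPM, MT1E at 392 and 290 and MT2A at 9052 and 8803. MT1X was at 607 and MT1E at 454 CPM in JQ1-B, and the median of the list turned to -0.10 against JQ1-B.

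The share of cells called G1 was close in the 2 libraries, while S phase was called more often and G2/M less often with paclitaxel. After each cell was thinned to 10000 UMIs and the libraries were scored together, 273 of 611 JQ1+paclitaxel cells (44.7%, 40.7–48.7) and 304 of 659 JQ1-A cells (46.1%, 42.3–50.02) were called G1. S phase was called in 28.8% (25.2–32.6) and 23.4% (20.2–26.8), and G2/M in 26.5% (23.05–30.2) and 30.5% (27.0–34.2). The intervals overlapped for every phase, which does not show that the shares were equal, and the differences were not tested. Near a phase boundary, within a score of 0.05, lay 21.6% and 22.9% of cells. The summed level of the S phase list was 994 CPM with paclitaxel, 912 in JQ1-A and 1045 in JQ1-B, and that of the G2/M list 3803, 3668 and 3694. Of 27 measured S phase genes 23 had a ratio to JQ1-A above 1. Their median log2 ratio was 0.14, and it turned to -0.07 against JQ1-B. No gene of the S phase or G2/M list was past the fold, where 1.86% of all measured genes were.

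Paclitaxel next to vehicle, in the same experiment, differed in more genes than paclitaxel next to JQ1. Without JQ1, 408 measured genes (6.48%) were past the fold upwards and 513 (8.15%) downwards, 921 (14.6%) in all. The median absolute log2 ratio was 0.25 against 0.13 with JQ1. The measured genes were kept by their level in JQ1+paclitaxel and JQ1-A, so some had few UMIs in DMSO and paclitaxel. DMSO was also the smallest library (10621159 UMIs), and how much this added to the count was not tested. The ratios of paclitaxel to DMSO and of JQ1+paclitaxel to JQ1-A share no library. Across 6292 genes, which are not independent replicates, they had a Spearman correlation of 0.12, and of 0.10 over the 1906 genes with at least 50 CPM. Genes lower beside JQ1 were mostly lower beside vehicle as well, since 58 of 71 (81.7%) had a ratio below 1, compared with 49.1% of all measured genes, and 17 (23.9%, or 3.31% of the 513) were past the fold in the same direction. Genes higher beside JQ1 were not, since 18 of 46 (39.1%) had a ratio above 1, 6 (13%, or 1.47% of the 408) were past the fold in the same direction and 13 (28.3%) in the opposite one. The difference between the directions was not tested.

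FOS had the largest difference of ratios among the genes named by rule that were past the fold in opposite directions. It was at 9.90 CPM in paclitaxel and 60.4 in DMSO, a ratio of 0.164, against a ratio of 1.74 beside JQ1. APOE had a ratio of 0.611 beside vehicle (5.12 and 8.38 CPM) and APOC1 one of 0.664 (17.9 and 26.9 CPM), both opposite to beside JQ1. CCND1 was 1.93-fold higher with paclitaxel beside vehicle (349 and 181 CPM) and 0.806-fold beside JQ1. Whole lists showed the same contrast of sizes. The median log2 ratio of 16 cytokine and NF-kB genes was -1.88 beside vehicle and -0.10 beside JQ1, and that of 21 immediate early genes -1.47 and -0.08, but both lists also differed between the JQ1 libraries, with medians of -0.60 and -0.38 for JQ1-B against JQ1-A.

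**Figure D3:**
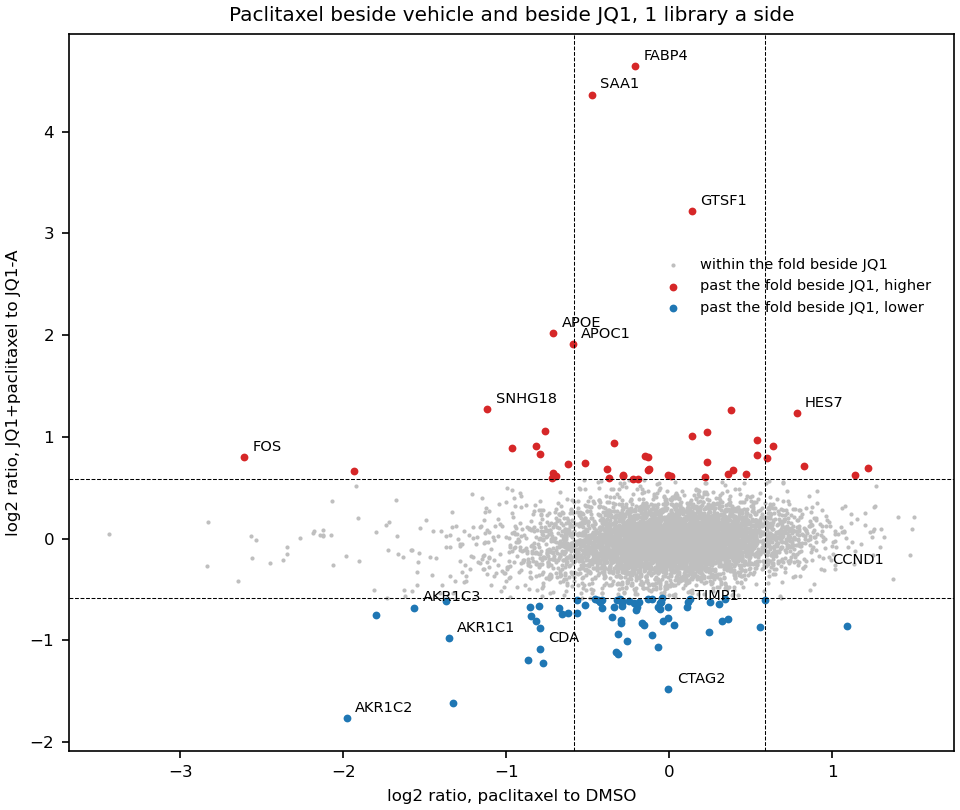
For each of 6292 genes the log2 ratio of paclitaxel to DMSO (horizontal) is plotted against the log2 ratio of JQ1+paclitaxel to JQ1-A (vertical), with dashed lines at 1.5-fold. Genes past the fold beside JQ1 are coloured, and blue points lie mostly left of 0 (58 of 71) while red points lie on both sides (18 of 46 right of 0).

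The ratios of library sums were also seen as shares of cells. With cells thinned to 10000 UMIs, all 15 highest genes had a UMI in a larger share of JQ1+paclitaxel cells than of JQ1-A cells, with intervals apart for 13. All 15 lowest had one in a smaller share, with intervals apart for 15. The genes were picked by their ratio between these same libraries, so the direction follows largely from that choice and is no separate evidence. All cells were of 1 line, so no cell type was at hand in which a gene should be absent and from which free RNA could be judged. GTSF1 was found in 19.1% (117 of 611) and 2.58% (17 of 659) of cells and BASP1 in 47.6% and 27.2%. GS1-600G8.5 was found in 26.7% and 65.9%, AKR1C2 in 11.9% and 30.2%, and AKR1C3 in 38.8% and 57.1%. TIMP1 differed in amount and not in share, with a UMI in 99.5% and 99.8% of cells and a mean of 28.7 and 47.2 UMIs in those cells. Without thinning, GTSF1 was found in 30.8% and 4.16% of cells and AKR1C2 in 19.9% and 46.3%.

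**Figure D4:**
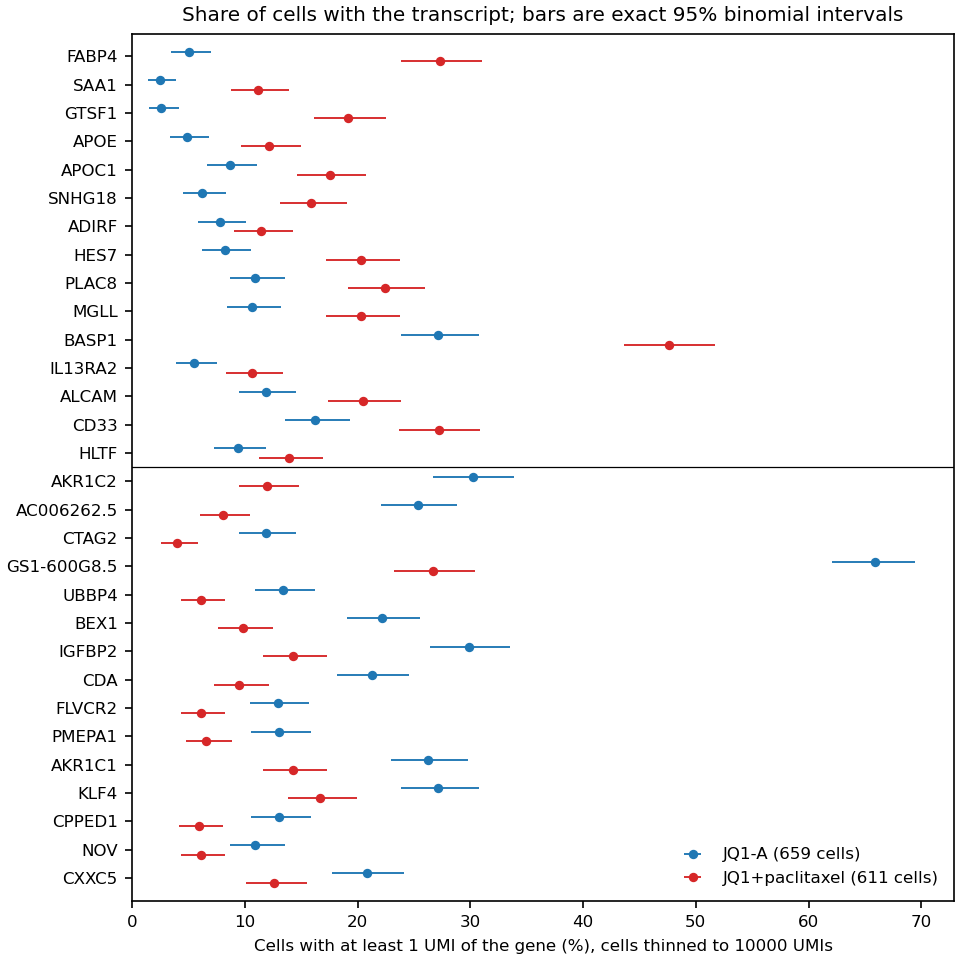
Share of cells with at least 1 UMI of each of the 15 highest (above the line) and 15 lowest genes (below it) in JQ1-A (659 cells) and JQ1+paclitaxel (611 cells), each cell thinned to 10000 UMIs, with bars for exact 95% binomial intervals. All 15 upper genes lie to the right in JQ1+paclitaxel and all 15 lower genes to the left, with overlapping bars only for ADIRF and HLTF. The genes were picked by their ratio between these libraries, so the direction follows largely from that choice.

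FABP4 was spread unevenly over cells. It had a UMI in 167 of 611 cells with paclitaxel (27.3%, 23.8–31.1) and in 5.01% of JQ1-A, 1.56% of DMSO and 1.63% of paclitaxel cells. The 10% of JQ1+paclitaxel cells with most FABP4 held 88.2% of its UMIs, 40 cells had at least 10 UMIs against 0 in JQ1-A, and the highest cell had 111 against 6. Several of the other high genes were found more often in the 167 cells with FABP4 than in the 444 without, namely SAA1 (23.4% and 6.53%), APOE (21.6% and 8.56%), APOC1 (33.5% and 11.5%), ADIRF (29.9% and 4.5%) and PLAC8 (35.9% and 17.3%). GTSF1 went the other way (13.2% and 21.4%), as did IL13RA2 (7.78% and 11.7%) and, by less, MGLL (18.6% and 20.95%) and CD33 (25.75% and 27.7%). BASP1 (48.5% and 47.3%) and HES7 (20.4% and 20.3%) were found alike in both. Most of the low genes were found less often in the cells with FABP4, for instance AKR1C2 (5.39% and 14.4%) and BEX1 (4.79% and 11.7%). KLF4 (16.2% and 16.9%) and CDA (9.58% and 9.46%) were found alike in both. AKR1C1 (19.2% and 12.4%) and FLVCR2 (8.38% and 5.18%) went the other way. These are cells of 1 library, split by 1 of the genes described, and the values are a description.

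Small differences also ran along whole chromosomes. Medians were taken over measured genes with a place in the annotation (91.97%), on each chromosome with at least 30. Over all 6292 measured genes 3425 had a ratio to JQ1-A below 1. Chromosome 13 had the highest median log2 ratio, 0.18 over 96 genes, and only 16 of them had a ratio below 1. Against JQ1-B its median was 0.18 with 15 genes below 1, and for JQ1-B against JQ1-A it was 0.02 with 45 below 1. None of its genes was past the fold, where 1.86% of all measured genes were, so this absence is not read as a result about the chromosome. Chromosome X had the lowest median, -0.19 over 197 genes, with 170 below 1, and -0.15 with 147 below 1 against JQ1-B. JQ1-B against JQ1-A had a median of -0.06 there, with 125 below 1. The X-linked genes past the fold were 12 lower, among them CTAG2, BEX1 and TIMP1, and 1 higher, IL13RA2. Over all measured genes 1.13% were lower and 0.731% higher. Paclitaxel against DMSO, which shares no library with these, had medians of 0.14 on chromosome 13 and -0.13 on X. Other chromosomes lay between -0.13 (chromosome 15) and 0.07 (chromosome 17).

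**Figure D5:**
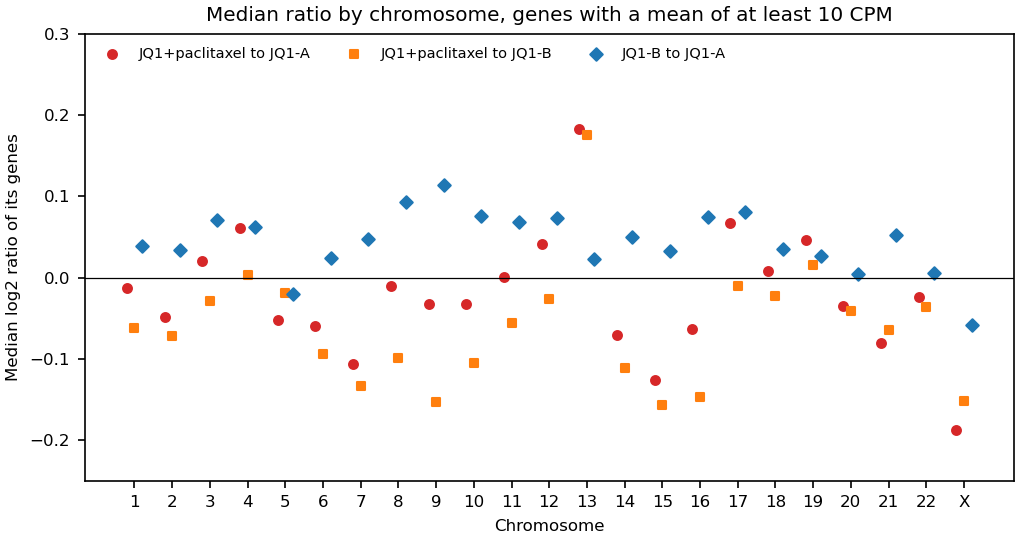
Median log2 ratio of the measured genes of each chromosome for JQ1+paclitaxel to JQ1-A, JQ1+paclitaxel to JQ1-B and JQ1-B to JQ1-A. Chromosome 13 is at 0.18 in both ratios with paclitaxel and at 0.02 between the JQ1 libraries, and chromosome X is at -0.19 and -0.15 and at -0.06 between the JQ1 libraries.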

How the data were processed

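The deposited table held raw UMI counts per gene and cell for 18955 genes, none of them seen in fewer than 3 cells, over 5738 cells, and a second deposited file gave the library of each cell. The authors made the counts from 10x Genomics Chromium 3' v2 libraries with Cell Ranger, aligned to hg19 (GRCh37), and used Seurat downstream. The filter of the study (1 to 15% mitochondrial UMIs and at least 2000 genes) had not been applied in the table, and 620 of 643 and 659 of 697 cells pass it. All deposited cells were used.

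UMIs were summed per library and divided by the library total to give CPM. Genes averaging 10 CPM or more over JQ1+paclitaxel and JQ1-A were compared. With 1 library a side no test was made. Ratios carry exact conditional binomial intervals, and shares of cells carry exact (Clopper-Pearson) ones. "Past the fold" means a ratio of at least 1.5, or at most its inverse. Named genes were the 15 highest and 15 lowest ratios, every member of 31 gene lists past the fold, and 14 fixed genes (drug targets and known responders, 13 of them in the table). The result of 1 fixed gene is not reported here. Members and lists were chosen with earlier results of these data known. Other genes are named for context, mostly list members within the fold or below the minimum, and were chosen outside this rule. Some of these are marked in the text as named after their values were seen.

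Values per cell used cells thinned at random to 10000 UMIs, which left out 32 JQ1+paclitaxel and 38 JQ1-A cells. Phases were called with Seurat 5.3.0 in R 4.3.3. Chromosome places came from GENCODE v44 lifted to GRCh37. Other steps used Python 3.11.15, numpy 2.4.6, scipy 1.17.1 and pandas 2.3.3, and edgeR 4.0.16 for the TMM alternative. The code for ratios, intervals and fold calls was tested on simulated counts. Doublets were not called, as a single line gives a caller no types to tell apart, and cells above the 95th percentile of UMIs were left out as an alternative. Alternatives also changed the cells, the scaling, the minimum, the fold and the JQ1 library. The 20 Mb windows, the correlation at 50 CPM, the margin of a phase boundary, the promoter search and the count of cells with at least 10 FABP4 UMIs were chosen after seeing the data.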

Additional observations from a re-analysis of the deposited data

Results flagged for a closer look

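For 6 of the genes named by rule the ratio with paclitaxel was past 1.5-fold upwards beside JQ1 (JQ1+paclitaxel against JQ1-A) and past it downwards beside vehicle (paclitaxel against DMSO). As differences of the log2 ratios, the first minus the second, the values were 3.41 for FOS, 2.73 for APOE, 2.50 for APOC1, 2.39 for SNHG18, 1.81 for PLAC8 and 1.73 for HLTF. Each rests on 1 library in each of 4 groups, and the difference was not tested.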

How the results depend on the processing

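No paired analysis was possible because each treatment had 1 library in the experiment, and for the same reason no replicate could be left out. No gene past the fold and named by rule changed direction under any alternative run. The count of genes past the fold was 71 higher and 118 lower when mitochondrial and ribosomal protein genes were left out of the total, which lets 7711 genes pass the minimum, 114 lower in the mean over cells, 117 lower among cells called G1, and 87 higher and 123 lower after thinning to 10000 UMIs. Of the 46 higher and 71 lower genes, 30 and 41 remained past the fold among G1 cells and 38 and 49 after thinning. A fold of 2 left 11 and 10 (8 and 5 from both JQ1 libraries), a minimum of 50 CPM left 8 and 6 of 1906 genes (3 and 4), and no minimum gave 1499 and 1838 of 15826 (701 and 828), where genes with a single UMI in a library count. Why the mean over cells put more genes lower was not tested. For the genes named by rule, 494 ratios moved by less than their counting interval and 66 by more, 32 of the latter with JQ1-B as the reference and 19 among G1 cells. Over genes with at least 50 CPM the median log2 ratio was -0.13 for the lipid list, against 0.07 over all its measured members, and -0.17 for chromosome X, while chromosome 13 had too few genes for a value. The 12 phase shares moved by less than their intervals, and 36 shares of cells with a UMI moved with the depth to which cells were thinned. Depth limits the rare transcripts, such as ABCB1 at 27 and 5 UMIs, and differences between cultures of a treatment cannot be told apart from the effect of the drug.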

Other observations

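The 117 genes past the fold beside JQ1 included 15 that were past it in the opposite direction beside vehicle, 13 of them higher beside JQ1. Named after their values were seen, SLC7A5, the importer of large neutral amino acids, was at 13.2 CPM in JQ1+paclitaxel and 24.0 in JQ1-A (ratio 0.552) but at 58.2 in paclitaxel and 27.3 in DMSO (ratio 2.13), while its partner subunit SLC3A2 was at 32.1 and 32.1 CPM beside JQ1. GAMT, the last enzyme of creatine synthesis, was at 61.1 and 32.9 CPM beside JQ1 (ratio 1.86) and at 16.1 and 31.4 beside vehicle (ratio 0.513). RAC3, a small GTPase, was at 20.3 and 11.4 CPM beside JQ1 (ratio 1.78) and at 13.3 and 22.97 beside vehicle (ratio 0.577). The collagen chaperone SERPINH1 was at 43.9 and 26.4 CPM beside JQ1 (ratio 1.66) and at 35.9 and 55.1 beside vehicle (ratio 0.651). The differences were not tested.

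In windows of 20 Mb chosen after seeing the data, the first window of chromosome 17 (17:1-20000000) had a median log2 ratio of 0.27 against JQ1-A, with 78 of 86 genes above 1, but 0.04 against JQ1-B, and JQ1-B against JQ1-A had 0.23. The last window of X (X:140000001-160000000) had -0.25 against JQ1-A, with 42 of 45 genes below 1, -0.15 against JQ1-B, and 0.10 for paclitaxel against DMSO.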
